A study of Mus musculus with 47 samples.

Results

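The comparison described here is the response of the liver to antibiotics in female wild-type mice, which was read on 12 of the 47 arrays of the study, 6 from treated mice (ATB) and 6 from control mice (CTRL). All 12 mice were females of the genotype Pxr+/+, littermates born to Pxr+/- dams on a C57BL/6J background and about 6 months old. ATB mice drank water with ampicillin at 1 g/L, neomycin at 1 g/L and vancomycin at 0.5 g/L for 2 weeks, whereas CTRL mice drank tap water without them, and all were sacrificed at ZT6, that is, 6 h after lights on. Each group had 8 mice in 2 cages, and 6 of them were measured, 3 per cage by the study's methods. The labels do not say which cage a mouse came from, so an effect of the cage and an effect of the treatment cannot be told apart. The p-values measure the spread between mice within groups, estimated over all 47 arrays of the study and not over these 12 alone. The study crossed this treatment with sex and with the loss of Pxr, and its other 3 pairs of groups (Pxr-/- females and males of both genotypes) serve below as a comparison only.

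The pregnane X receptor (PXR, gene Nr1i2) is a nuclear receptor of hepatocytes that binds drugs, steroids, bile acids and bacterial metabolites and turns on cytochromes P450, conjugating enzymes and transporters. Gut bacteria deconjugate and modify bile acids and send cell wall products and metabolites to the liver through the portal vein. Broad-spectrum antibiotics in drinking water deplete these bacteria. Kupffer cells, the macrophages of the liver sinusoids, are the first liver cells to meet bacterial products, and taurine, made in the liver from cysteine, is the main amino acid that mouse bile acids are conjugated to.

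RNA from each liver was hybridized to a 1-color Agilent array, and the values below are log2 normalized signals, on which a difference of 1 is a doubling. A gene was called when the adjusted p (limma, Benjamini-Hochberg over 32979 probes of 21714 genes) was 0.05 or less and the fold change above 1.2. The 75th percentile of the raw median signal was 404 to 459 in CTRL and 346 to 492.5 in ATB arrays, and 32495 to 34477 and 32010 to 34384 gene probes were well above background. The tissue label held: the 15 hepatocyte markers were bright in every mouse, with a mean of 16.84 to 17.03 in CTRL and of 16.91 to 17.14 in ATB livers. In both groups the mouse numbered 1, hybridized on the same slide, stood apart. The mean of the clock genes was 10.33 in CTRL 1 and 10.46 in ATB 1, against 9.52 to 9.79 and 9.43 to 9.67 in the other mice, and that of the 6 tested genes of 15 pancreatic acinar ones was 9.98 and 10.15, against 8.34 to 8.71 and 8.45 to 8.63. Results are therefore also given without CTRL 1, or without slide 1. Leaving out each mouse in turn was planned, but CTRL 1 was singled out, and slide 1 left out, after seeing the data. Where CTRL 1 was the CTRL mouse nearest the ATB mice, leaving it out widens the difference, so such a call is no separate evidence. In bulk tissue, fewer cells of a type and less RNA per cell cannot be told apart.

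Few genes passed the test in these livers. Csad, Ces2a and Mypop were called lower in ATB mice and Slc4a9 higher, which is 3 genes lower (0.0138% of those tested) and 1 higher (0.00461%). Without adjustment, 1939 genes had a p below 0.05 and were lower (8.93%), and 382 were higher (1.76%). The lower side was the larger one over all genes, since 68% of the genes had a negative difference and the median was -0.06. This asymmetry depended on the scaling: with quantile normalization the counts at unadjusted p below 0.05 were 1260 lower and 1190 higher, and with the processed signal scaled to the 75th percentile 1054 lower and 1490 higher, with median differences of -0.002 and 0.006. For 79 genes (0.364%) the ranges of the groups were separate, of which 24 were higher and 55 lower in ATB mice.

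The gene with the largest change was Csad, which encodes cysteine sulfinic acid decarboxylase, the enzyme that makes hypotaurine on the way to taurine. Its probe at chr15:102007569-102007628 (mm9) read 11.93, 13.38 and 14.56 (lowest, median, highest of 6) in CTRL livers and 10.61, 10.77 and 11.29 in ATB livers. Every ATB mouse was below every CTRL mouse. Csad fell by 2.48 ± 0.34 (SE) on the log2 scale, a 5.57-fold decrease (95% interval of the difference -3.16 to -1.80, limma adjusted p = 0.00013). A second, dim Csad probe was lower by the same pattern without overlap, 5.15 to 6.16 in CTRL and 4.88 to 5.04 in ATB livers, with a difference of -0.64 (adjusted p = 0.13). In the other 3 pairs of groups the difference of the main probe was -1.52 in Pxr-/- females, where it was called (adjusted p = 0.0498), -1.24 in wild-type males (0.054) and -1.45 in Pxr-/- males (0.136). The difference of the response between wild-type and Pxr-/- females was -0.96 (adjusted p = 0.49) and that between wild-type females and males -1.23 (0.32), neither of which was called. Of the 29 alternative settings Csad was called in 26, including all 12 fits that left out 1 mouse (-2.78 to -2.23). The 3 exceptions were the fit to the 12 arrays compared here, without the other groups in the estimate of the spread, and the fits to 1 wash batch alone. A wash batch is the set of arrays that the labels give a shared wash number.

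No other gene of the taurine and sulfur amino acid list was called. Of 29 tested genes of sulfur and one-carbon metabolism, 3 were lower at unadjusted p below 0.05 (10.3%, against 8.93% of all genes) and 0 higher, and the median was -0.07. Slc6a6, the taurine transporter, read 11.67, 12.36 and 12.64 in CTRL and 11.34, 11.89 and 12.02 in ATB livers, a difference of -0.50 (adjusted p = 0.35). Both groups overlapped, with 2 ATB mice below all CTRL mice.

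Ces2a, a carboxylesterase that hydrolyses drugs and lipid esters and a gene of the PXR and CAR target list, read 11.65, 11.99 and 12.28 in CTRL and 11.20, 11.43 and 11.78 in ATB livers. ATB 1 lay inside the CTRL range, and the other 5 ATB mice were below all CTRL mice. Ces2a fell by 0.56 ± 0.10 on the log2 scale (1.47-fold, limma adjusted p = 0.025). It was also called in wild-type males (-0.48, adjusted p = 0.012), and its difference was 0.04 in Pxr-/- females and -0.22 in Pxr-/- males, but the test of the difference between wild-type and Pxr-/- females was not passed (-0.60, adjusted p = 0.44). Ces2a was called in 18 of 29 alternatives and in 6 of the 12 fits without 1 mouse.

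Mypop, a Myb-related transcriptional repressor, was a dim probe that read 5.76, 6.13 and 6.31 in CTRL and 5.33, 5.53 and 5.61 in ATB livers, without overlap. Mypop fell by 0.54 ± 0.10 on the log2 scale (adjusted p = 0.038) and was called in 11 of 29 alternatives and in 3 of the 12 fits without 1 mouse. Slc4a9, of the bicarbonate transporter family, was called on 1 of its 2 probes only. The dimmer probe read 4.99, 5.27 and 6.57 in CTRL and 6.10, 6.76 and 6.87 in ATB livers, where CTRL 1 reached into the ATB range, a difference of 1.11 ± 0.18 (adjusted p = 0.0046). The brighter probe read 11.20, 11.41 and 11.48 in CTRL and 11.06, 11.29 and 11.45 in ATB livers, a difference of -0.09 (adjusted p = 0.78). Slc4a9 was called in 24 of 28 alternatives, and leaving out CTRL 5 alone ended the call (1.01). The 2 probes of the gene disagree, and which of them reports its transcript was not tested.

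**Figure D1:**
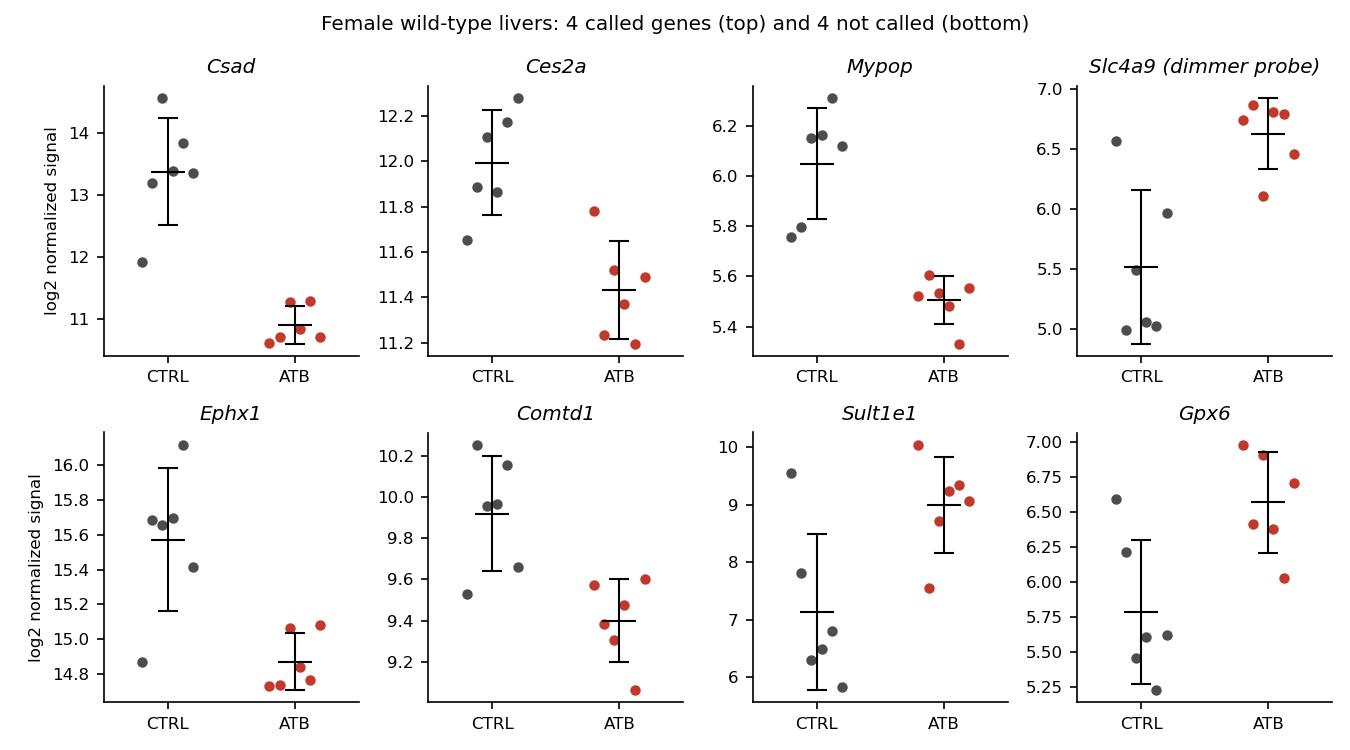
Log2 normalized signal (y axis) of the 4 called genes (top) and 4 genes with low p that were not called (bottom) in each CTRL (grey) and ATB (red) female wild-type liver; horizontal bars and whiskers are the mean and SD of 6 mice. ATB mice lie below all CTRL mice for Csad and Mypop, whereas for Ces2a, Slc4a9 and the 4 genes below at least 1 mouse overlaps the other group.

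The promoters of the genes on which the PXR question turns are printed to show which of them hold the sequence AGGTCA, the half-site of nuclear receptors such as PXR. The windows are the 250 bases before the start site (RefSeq, GRCm38.p6), searched on both strands together with the 50 bases after it, and capitals mark the match. AGGTCA was found in 16.3% of all 32851 promoters, and in 11 of 32 promoters of the PXR and CAR target list (34.4%). It was also in 26.3% of the promoters of interferon-stimulated genes and in 23.8% of those of cytosolic heat shock genes. Counted by gene, the shares were 35.7% for PXR and CAR targets, 27.3% for interferon-stimulated and 33.3% for heat shock genes, against 18.1% of all genes. The sequence was thus not particular to the PXR and CAR target list. Ces2a (chr8:104733753-104734002 (plus strand)) has 1 match at position -226 and Cyp3a11 (chr5:145879855-145880104 (minus strand)), a PXR target whose values follow below, has 1 at -162, whereas neither of the 2 Csad promoters has a match, of which the one at chr15:102205053-102205302 (minus strand) is printed. A match is not a binding site, and its absence concerns these letters in this window only.
Csad: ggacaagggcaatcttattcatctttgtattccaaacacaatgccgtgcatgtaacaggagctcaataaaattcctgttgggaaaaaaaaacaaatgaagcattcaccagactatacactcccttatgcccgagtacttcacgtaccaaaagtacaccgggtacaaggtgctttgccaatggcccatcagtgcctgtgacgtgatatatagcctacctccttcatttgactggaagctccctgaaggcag
Ces2a: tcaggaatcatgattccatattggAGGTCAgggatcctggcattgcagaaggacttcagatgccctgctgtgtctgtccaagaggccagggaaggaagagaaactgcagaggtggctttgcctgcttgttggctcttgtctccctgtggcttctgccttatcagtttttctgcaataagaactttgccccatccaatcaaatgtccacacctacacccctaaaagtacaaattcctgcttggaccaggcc
Cyp3a11: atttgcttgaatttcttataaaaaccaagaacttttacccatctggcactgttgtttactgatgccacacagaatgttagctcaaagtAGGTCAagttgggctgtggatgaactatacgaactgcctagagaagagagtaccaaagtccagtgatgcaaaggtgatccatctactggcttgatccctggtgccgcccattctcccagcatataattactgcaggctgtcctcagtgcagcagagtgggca

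The classical targets of PXR were not called in ATB livers apart from Ces2a. Of 30 tested genes of the PXR and CAR target list, 15 were higher and 15 lower, and the median was -0.003. At unadjusted p below 0.05, 2 were lower and 2 higher (6.67% each), against 8.93% and 1.76% of all genes. Cyp3a11, the main drug-oxidizing P450 induced through PXR, read 14.65, 15.40 and 15.75 in CTRL and 14.64, 15.41 and 15.52 in ATB livers, so that the groups lay over each other. Its difference was 0.02 ± 0.17 (adjusted p = 0.98, 95% interval -0.33 to 0.37). Cyp2b10, the marker P450 of CAR, read 14.95, 15.22 and 15.51 in CTRL and 14.70, 15.02 and 15.38 in ATB livers (difference -0.18, 95% interval -0.85 to 0.49). Cyp2c55 (-0.41), Slco1a4 (0.07) and Nr1i2 itself (0.01) were not called either, and 2 of the genes at unadjusted p below 0.05 were the female-biased P450 Cyp3a44 (0.74, adjusted p = 0.33) and Cyp2c54 (0.34, adjusted p = 0.36). Cyp1a1 and Cyp1a2, targets of the aryl hydrocarbon receptor, differed by -0.30 and 0.14 and were not called.

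These genes set the female response apart from the male one. The difference between the ATB response of wild-type females and that of wild-type males was called for 10 genes (0.0461%), with 2810 genes at unadjusted p below 0.05, and 6 of the 10 were P450 genes of the Cyp3a and Cyp2b families. Cyp3a11 averaged 15.26 ± 0.43 (SD, n = 6) in CTRL and 15.29 ± 0.34 in ATB females, and 14.15 ± 0.17 and 12.11 ± 0.27 in males, so that the response differed by 2.06 ± 0.25 (SE, adjusted p = 1.7e-06). Cyp2b10 averaged 15.22 ± 0.19 and 15.04 ± 0.27 in females and 10.71 ± 0.67 and 7.60 ± 0.65 in males, a difference of 2.93 ± 0.47 (adjusted p = 0.0014). The same difference was 2.43 for Cyp2b9, 2.15 for Cyp3a16, 1.88 for Cyp3a41a and 1.14 for Cyp3a59. Members of each family are near identical in sequence, and a probe may report more than 1 of them. Tff3, a trefoil peptide, had a difference of -2.65 (adjusted p = 0.032), from 4.97 to 5.09 in females and from 8.35 to 11.12 in males. The female values of Tff3 were as dim as those of the second Csad probe, so a female response could hardly be read there. Shq1, Paip2b and Pknox1 had differences of -0.96, -0.95 and -0.74. Shq1, Paip2b and Pknox1 were each called on 1 of several probes. The 6 P450 genes were called in 26 to 28 of 29 alternatives and in all 12 fits without 1 mouse, whereas Tff3 was called in 13 of 28 and in 6 of the 12, and Pknox1 in 12 of 29 and in 5 of the 12. Shq1 was called in 22 of 29 and in 10 of the 12, and Paip2b in 18 and in 8. The difference from Pxr-/- females was called by limma for 0 genes (0%), with 2050 genes at unadjusted p below 0.05 and a smallest adjusted p of 0.44.

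**Figure D2:**
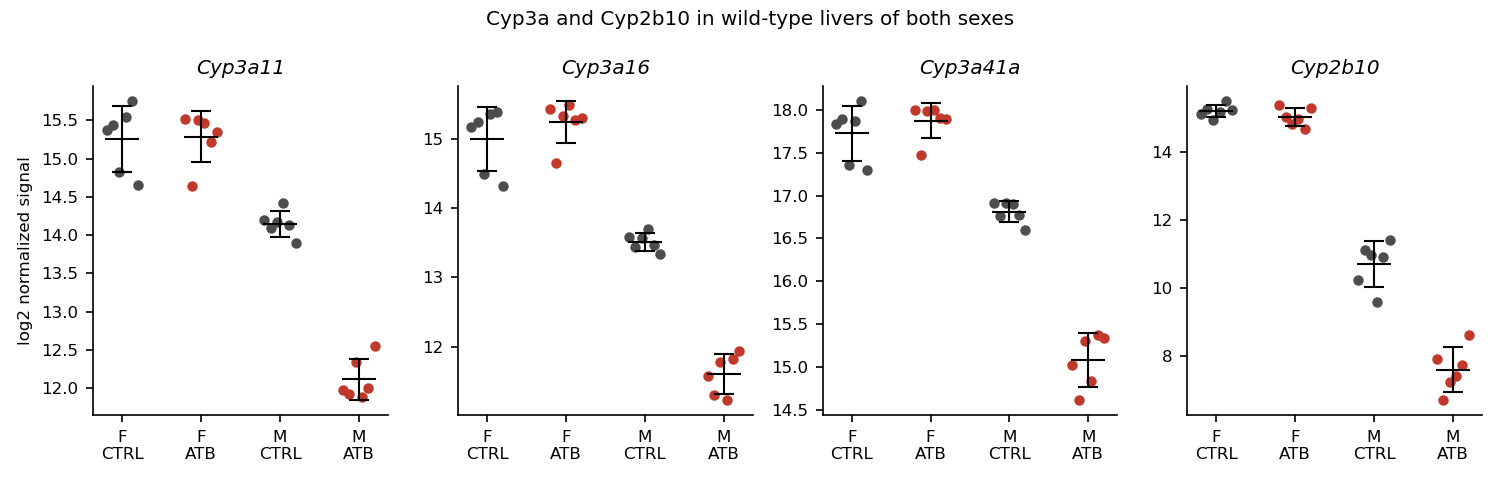
Log2 normalized signal (y axis) of 4 P450 genes in wild-type livers of females (F) and males (M), 1 point per mouse, CTRL in grey and ATB in red, with the mean and SD of 6 mice. In females the CTRL and ATB mice overlap for all 4 genes, and in males every ATB mouse lies below every CTRL mouse.

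Of 24 tested genes of bile acid synthesis none was called, 2 were lower at unadjusted p below 0.05 (8.33%, against 8.93% of all genes) and 0 higher, and the median was -0.05. The 2 were the enzymes that set the amount and the kind of bile acid made. Cyp7a1, the rate-limiting enzyme of the classical pathway, read 9.35, 10.57 and 12.78 in CTRL and 7.74, 9.25 and 9.58 in ATB livers. CTRL 1 was the lowest CTRL mouse and lay within the ATB range, and 4 ATB mice were below all CTRL mice. The difference was -1.65 ± 0.52 (adjusted p = 0.27, not called), and a second, dim probe of Cyp7a1 did not overlap between groups (-0.66, adjusted p = 0.35). Cyp7a1 differed by 0.33 in Pxr-/- females, 0.65 in wild-type males and 0.54 in Pxr-/- males.

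Cyp8b1, which makes cholic acid, read 8.23, 9.56 and 10.44 in CTRL and 7.89, 8.48 and 9.11 in ATB livers, a difference of -1.02 ± 0.30 (adjusted p = 0.24). CTRL 1 was again lowest of the CTRL mice, and without it Cyp8b1 was called lower (-1.27), the only 1 of 29 alternatives in which it was. It was not called with both mice numbered 1 left out. Nr0b2 (SHP, a repressor of Cyp7a1), Cyp27a1 and Cyp7b1, enzymes of the alternative pathway, differed by 0.10, -0.13 and 0.18. Among the transporters, Slc51b, a basolateral bile acid exporter, read 6.04, 6.58 and 7.12 in CTRL and 5.15, 5.75 and 6.56 in ATB livers (-0.77, adjusted p = 0.27). The canalicular export pump Abcb11 (-0.14) and the uptake transporter Slc10a1 (0.02) were not called.

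The 2 subunits of the canalicular cholesterol exporter were on the higher side, without being called. Abcg5 read 13.05, 13.43 and 14.26 in CTRL and 13.87, 14.09 and 14.54 in ATB livers (0.64 ± 0.17, adjusted p = 0.19), and Abcg8 read 11.82, 12.24 and 13.13 against 12.60, 12.76 and 13.37 (0.52 ± 0.16, adjusted p = 0.26). In both genes CTRL 1 was the highest CTRL mouse and the only one within the ATB range. Without CTRL 1 both were called higher, by 0.79 and 0.69. Both also differed in the same direction in the other 3 pairs of groups, between 0.18 and 0.67 for Abcg5 and 0.28 and 0.56 for Abcg8.

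**Figure D3:**
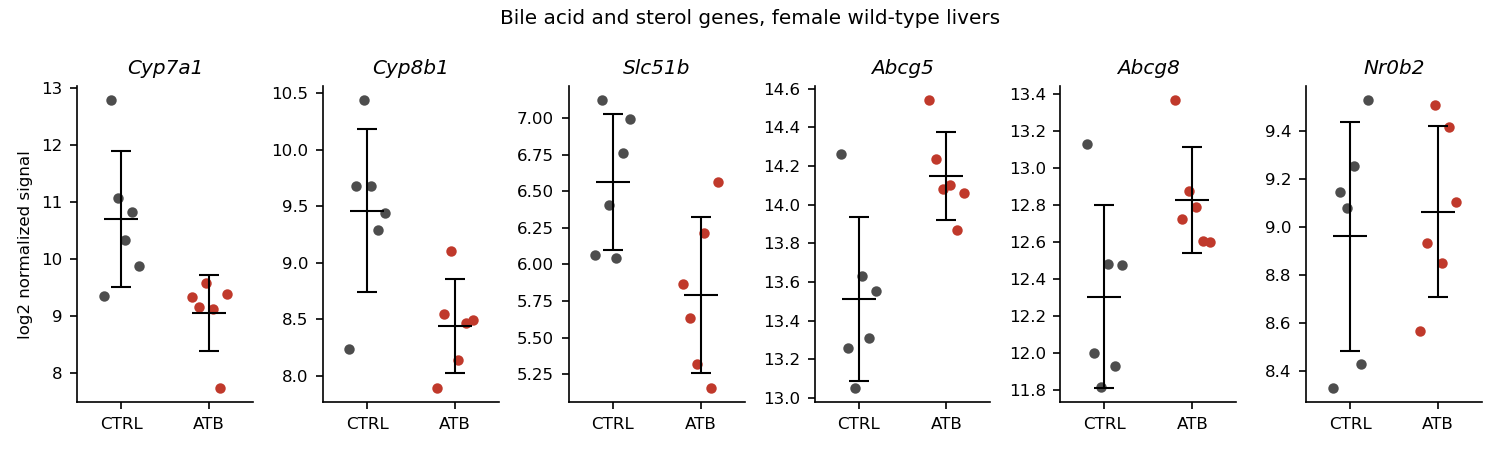
Log2 normalized signal (y axis) of 6 bile acid and sterol genes in each CTRL (grey) and ATB (red) female wild-type liver, with the mean and SD of 6 mice. CTRL mouse 1 (leftmost grey point) is lowest of the CTRL mice for Cyp7a1 and Cyp8b1 and highest for Abcg5 and Abcg8.

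Of the genes of lipid synthesis none was called, and their shares at unadjusted p below 0.05 were near the 8.93% of all genes. Of 26 sterol synthesis genes 23 were lower, with a median of -0.19, and 2 had p below 0.05 (7.69%), a count that was 8 without CTRL 1 and 1 to 4 without any other mouse. Of 34 genes of fatty acid and triglyceride synthesis 26 were lower (median -0.15) and 4 had p below 0.05 (11.8%). The 4 were Srebf1 (-0.66), Fasn (-0.63), Acaca (-0.46) and Acly (-0.55), and leaving out 1 mouse moved their number between 0 (without CTRL 2, CTRL 5 or ATB 5) and 10 (without CTRL 4). Fasn, the fatty acid synthase, ranged from 15.69 to 17.18 in CTRL and from 15.59 to 16.93 in ATB livers, with CTRL 4 the lowest CTRL mouse. Among PPARα targets, Angptl4, an inhibitor of lipoprotein lipase, read 13.46, 15.28 and 15.75 in CTRL and 15.79, 15.93 and 16.29 in ATB livers and did not overlap (0.96 ± 0.41, adjusted p = 0.42). Its difference was negative in the other 3 pairs, between -0.34 and -0.17. The list as a whole had 21 genes higher and 18 lower of 39.

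Of 42 conjugation enzymes, 2 were lower at unadjusted p below 0.05 (4.76%) and 3 higher (7.14%). Of 30 genes of the NRF2 and glutathione list 5 were lower (16.7%) and 0 higher, and none of either list was called. Over all genes the shares were 8.93% lower and 1.76% higher. Ephx1, the microsomal epoxide hydrolase, read 14.87, 15.67 and 16.11 in CTRL and 14.73, 14.80 and 15.08 in ATB livers (-0.70 ± 0.17, adjusted p = 0.17). CTRL 1 was the only CTRL mouse in the ATB range, and Ephx1 differed by -0.58 to -0.70 in the other pairs. Sult1e1, the estrogen sulfotransferase, read 5.83, 6.65 and 9.56 in CTRL and 7.54, 9.16 and 10.04 in ATB livers (1.86 ± 0.44, adjusted p = 0.16), again with CTRL 1 the highest CTRL mouse. Gpx6, of the glutathione peroxidase family, differed by 0.78 (5.23, 5.61 and 6.59 against 6.03, 6.56 and 6.98) and was called in the other 3 pairs, where its differences were 0.84, 1.08 and 1.01. Gstp1 and Gstp2, glutathione transferases whose transcripts are near identical, differed by -0.52 and -0.44. Mt1 and Mt2, the metallothioneins that bind zinc, differed by 1.56 and 1.94 (adjusted p = 0.34 and 0.4), with CTRL ranges of 14.12 to 17.35 and 12.27 to 16.45 that covered most ATB mice.

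The 26 genes of lowest p that were not called had unadjusted p-values of 1.58e-05 to 0.000198 and adjusted p-values of 0.096 to 0.168. With the 4 called genes, 3 of these 30 were higher and 27 lower. Of the 30, 17 differed in the same direction in all of the other 3 pairs of groups, and 11 were called in at least 1 of them. Of all 21714 genes, 45 were called in Pxr-/- females, 290 in wild-type males and 24 in Pxr-/- males. In the same order, 33.5%, 23.4% and 43.5% of all genes were lower. Among the 26 genes not called was Vps37a, of the ESCRT-I sorting complex. Vps37a did not overlap between groups (8.06, 8.51 and 8.96 against 7.80, 7.89 and 7.99, difference -0.59). Others were Comtd1 (-0.52), a methyltransferase-like gene, Pde4a, a cAMP phosphodiesterase (-0.57), the decapping enzyme Dcp2 (-0.41), the mediator subunit Med27 (-0.66) and Incenp, of the chromosomal passenger complex (-0.76). For Med27 and Incenp these are the probes with the low p, which are not the brightest of the gene, and the brightest ones differed by -0.24 and -0.56. The brightest probes of Dnase2a and Tfeb, again not those with the low p, differed by 0.06 and -0.00. Proca1 (-0.86) and Gm38426 (-0.73) lay lower in every pair of groups.

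Interferon-stimulated genes lay below zero as a list. The members of this and the other lists were chosen with earlier results of these data known. Their shares beside those of all genes are therefore a description and not a test. All 44 tested genes were lower in ATB livers, 25 at unadjusted p below 0.05 (56.8%, against 8.93% of all genes), none was called, and the median was -0.36 against -0.06 over all genes. The count of 25 was 11 without CTRL 2, 10 without ATB 4 and 16 without ATB 5, with medians of -0.29, -0.30 and -0.32. Oas1a, a 2-5A synthetase that activates RNA decay, read 10.97, 11.50 and 11.57 in CTRL and 10.27, 10.85 and 11.30 in ATB livers (-0.57, limma adjusted p = 0.29), and 3 ATB mice were below all CTRL mice. Ifi27l2a differed by -0.88 (11.67, 12.63 and 13.10 against 11.07, 11.67 and 12.36), Oasl2 and Oas2, of the same family as Oas1a, by -0.53 and -0.56, and Bst2, the membrane tether of budding virus, by -0.45. Irf7, the transcription factor that drives the response, differed by -0.43, Ifit1 by -0.51 and Isg15 by -0.43. The mean of the list ranged from 9.97 to 10.63 in CTRL and from 9.60 to 10.15 in ATB mice, so that the groups overlapped, and CTRL 1 was the lowest CTRL mouse. The median of the list was -0.08 in Pxr-/- females, 0.27 in wild-type males and 0.12 in Pxr-/- males, and these differences were not tested as a list. Within wash batch 1 (3 against 3 mice) the median was -0.30 with 1 gene at p below 0.05, and within wash batch 2 (2 against 2) it was -0.53 with 19.

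The promoters of 3 of these genes are printed because they hold the core of the interferon-stimulated response element, GAAA and a further GAAA with any 2 bases between them, in capitals and searched on both strands. It was present in 3.44% of all promoters and in 21 of the 38 promoters of 33 list genes with an entry (55.3%). It did not separate the genes by their response: 61.1% of the 18 genes at p below 0.05 and 60% of the other 15 had it. In Bst2 (chr8:71537473-71537722 (minus strand)) overlapping matches begin at -130 and -124, in Isg15 (chr4:156200819-156201068 (minus strand)) at -78, -72 and -66, and in Ifit1 (chr19:34640639-34640888 (plus strand)) at -104 and -85 on the opposite strand.
Bst2: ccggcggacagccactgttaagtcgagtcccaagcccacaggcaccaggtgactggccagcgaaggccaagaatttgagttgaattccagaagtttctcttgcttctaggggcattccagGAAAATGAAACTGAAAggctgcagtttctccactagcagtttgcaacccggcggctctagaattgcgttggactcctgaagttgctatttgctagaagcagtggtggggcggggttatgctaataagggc
Isg15: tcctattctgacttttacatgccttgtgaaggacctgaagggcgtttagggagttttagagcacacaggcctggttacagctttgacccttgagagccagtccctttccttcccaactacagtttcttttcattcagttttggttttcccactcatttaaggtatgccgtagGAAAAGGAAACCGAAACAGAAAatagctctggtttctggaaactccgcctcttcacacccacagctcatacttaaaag
Ifit1: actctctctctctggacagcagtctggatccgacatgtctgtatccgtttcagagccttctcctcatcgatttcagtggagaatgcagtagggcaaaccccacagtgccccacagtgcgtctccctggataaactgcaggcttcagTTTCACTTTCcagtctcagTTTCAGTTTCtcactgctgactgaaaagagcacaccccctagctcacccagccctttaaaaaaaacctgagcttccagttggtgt

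Macrophage and Kupffer cell markers were lower in the same livers. All 30 were lower, 15 at unadjusted p below 0.05 (50%, against 8.93% of all genes, none called), with a median of -0.54. Without ATB 2 or without ATB 4 the count was 5, with medians of -0.41 and -0.37. Clec4f, which marks Kupffer cells, read 12.54, 12.87 and 13.01 in CTRL and 11.64, 12.36 and 12.78 in ATB livers (-0.55, adjusted p = 0.26). Vsig4, a complement receptor of Kupffer cells, differed by -0.68, the complement subunits C1qa and C1qb by -0.66 and -0.62, Csf1r, the receptor of macrophage growth factor, by -0.61 and the scavenger receptor Msr1 by -0.55. Their mean ranged from 10.24 to 10.88 in CTRL and from 9.34 to 10.64 in ATB mice, and 3 ATB mice lay below all CTRL mice for each of Clec4f, Vsig4 and C1qa. The median within wash batch 1 was -0.47, with 0 genes at p below 0.05, and within batch 2 it was -0.85 with 22. In the other pairs the median was -0.11, -0.16 and 0.39 (Pxr-/- females, wild-type males, Pxr-/- males). Interferon-stimulated genes and macrophage markers were lower in the same group, and the part of the cell makeup in the interferon result was not tested.

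Of 15 neutrophil markers 10 were tested, and all 10 were lower, 6 at p below 0.05 (60%, median -0.30). Among them were S100a8 (-1.17) and S100a9 (-1.28), which bind calcium, and Camp (-0.64). Over the 29 alternatives the median ranged from -0.56 to -0.11 and the count from 2 to 7. With the filter on all 47 arrays the count was 3 and the median -0.16. S100a9 read 8.16, 9.47 and 10.51 in CTRL and 7.77, 8.10 and 8.71 in ATB livers. T and NK cell markers had 1 of 23 genes lower at p below 0.05 (4.35%) with a median of -0.06. Endothelial and stellate markers had 2 of 20 each (10%, medians -0.10 and -0.18). These shares were below or near the 8.93% of all genes. By direction alone, 18 of 20 endothelial and 19 of 20 stellate markers were lower, against 68% of all genes. The mean of the stellate list ranged from 9.68 to 9.88 in CTRL and from 9.27 to 9.85 in ATB mice. On that mean 5 ATB mice lay below all CTRL mice, and on the endothelial one 3 did. Hepatocyte markers had a median of 0.03. Ccl2, a chemokine for monocytes, differed by -0.83 and Tlr8 by -0.49, the 2 genes at p below 0.05 of 29 on bacterial sensing (6.90%). All 9 tested genes of MHC class II, which presents antigens, were lower (median -0.22), 1 of them at p below 0.05.

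Cytosolic heat shock genes, chaperones of protein folding, lay below zero as well. All 20 were lower, 11 at unadjusted p below 0.05 (55%, against 8.93% of all genes, none called), with a median of -0.36. Without CTRL 5 the count was 7 and the median -0.27. Hsp90aa1, the inducible cytosolic HSP90, read 12.89, 13.68 and 14.09 in CTRL and 12.51, 12.88 and 13.30 in ATB livers (-0.66, adjusted p = 0.28). The HSP90 co-chaperones Stip1 and Fkbp4 differed by -0.58 and -0.44, and Hspa4l and Hsph1, of the HSP110 family, by -0.59 and -0.67. Within wash batch 1 the median was -0.05, with 0 genes at p below 0.05, and within batch 2 it was -0.79 with 16. The median was -0.34 in Pxr-/- females, -0.01 in wild-type males and 0.03 in Pxr-/- males. Cell cycle genes were lower in 28 of 30, 16 at p below 0.05 (53.3%, median -0.29), with Mki67, a marker of dividing cells, at -0.59 and Cdc20 at -0.61. Without CTRL 3 this count was 5.

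**Figure D4:**
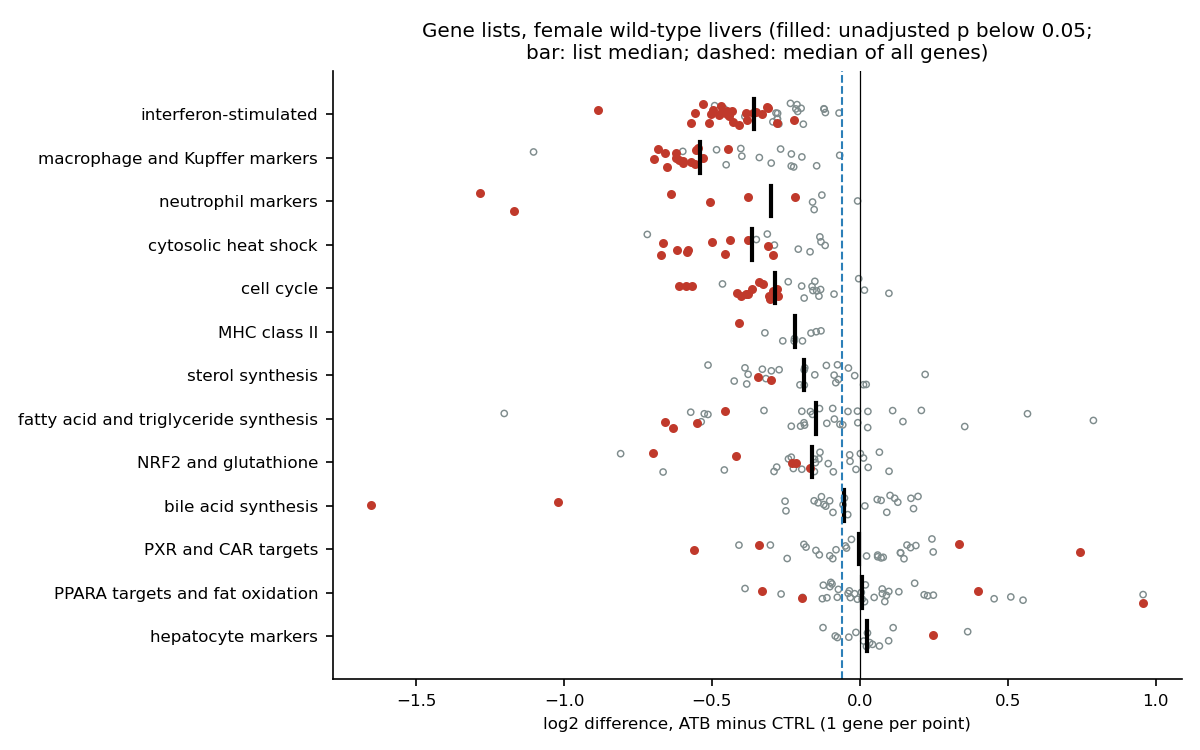
Log2 difference, ATB minus CTRL, in female wild-type livers (x axis), 1 point per tested gene, for 13 gene lists (y axis); filled points have an unadjusted limma p below 0.05, black bars are list medians and the dashed line is the median of all genes. The interferon, macrophage, neutrophil, heat shock and MHC class II lists lie wholly below 0, with medians of -0.36, -0.54, -0.30, -0.36 and -0.22, and the PXR and CAR target and hepatocyte lists lie around 0.

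The number of calls turned on 1 mouse. Without CTRL 1, 143 genes were called (0.659%), 18 higher and 125 lower. All 143 differed in the same direction when CTRL 1 was included, but both fits share every other mouse, so this is no separate evidence. Without slide 1 (both mice numbered 1) 139 were called, 104 of them the same genes, again in a fit that shares most of its mice. Among the list members called without CTRL 1 were Sult1e1, Abcg5, Abcg8 and Atp6v0d2 on the higher side and Cyp8b1, Ephx1, Hspa4l, Fkbp4, Stip1, Bst2, Ifi27l2a, Cdc20, E2f1, Cd163 and Camp on the lower side. Of these, Atp6v0d2, Cyp8b1 and Ifi27l2a were not called without slide 1. For Atp6v0d2, Hspa4l, Fkbp4 and Cd163 the called probe of lowest p was not the brightest of the gene. Leaving out any other mouse gave 1 to 11 genes lower and 0 or 1 higher.

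**Figure D5:**
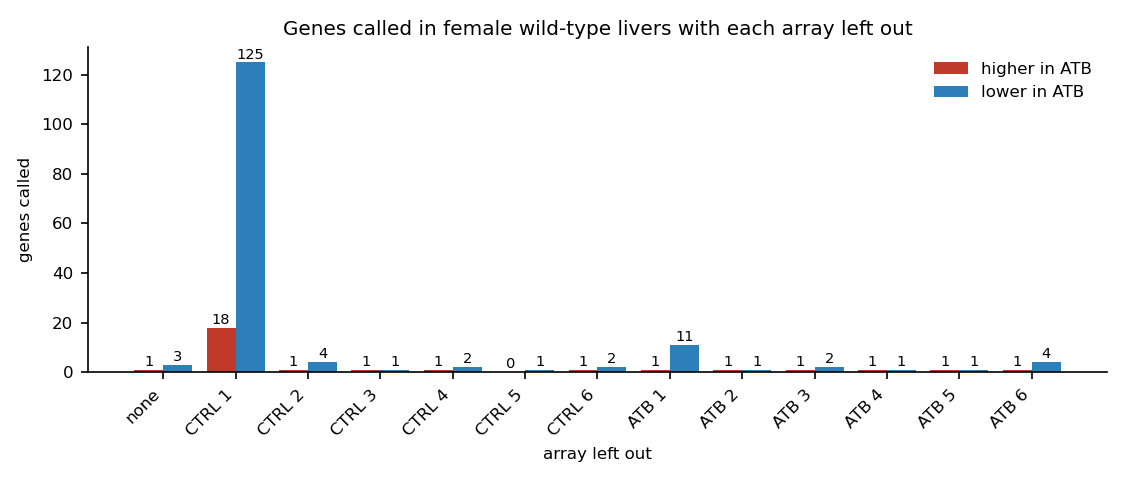
Number of genes called (y axis) higher (red) and lower (blue) in ATB livers with all 12 arrays (none) and with each array left out in turn (x axis). Leaving out CTRL 1 gave 18 genes higher and 125 lower, against 1 and 3 with all arrays.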

How the data were processed

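Liver RNA of 47 mice (8 groups, groups and wash batches from the labels) was hybridized to 1-color Agilent arrays, 1 per mouse. The authors read the images with Agilent Feature Extraction 10.10.1.1 and, per the submitters' processing notes, used limma; their deposited scanner files give spot intensity on a linear scale, neither background-subtracted nor scaled in the median signal column used here. Their deposited table of processed log2 values was used as an alternative only.

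The log2 median signal was averaged over the spots of a probe, and control spots and 422 non-uniform spot values were left out. A probe was tested when some group had it well above background on 5 or more of its arrays: 32979 of 56605 gene probes, in 21714 genes, of which 16210 have a symbol (2190 probes were renamed from RefSeq, 5699 tested probes have none). The wash batch effect was removed with group means kept, and CrossNorm was applied with 300 stacks of 1 array per group, a number chosen here. One limma 3.58.1 model (R 4.3.3, with files read by version 1.17.8 of data.table; Python 3.11.15 and matplotlib 3.10.9 for promoters and figures) held the 8 groups and the wash batch, so all groups share 1 estimate of the spread. Removing the batch first and fitting it again was part of this design. Differences between responses were contrasts of contrasts. Genes are represented by their brightest probe, unless the called probe is named. Precision is limited by the 6 mice per group. The steps were tested on simulated data.

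Named genes were the called genes, those of lowest p up to 30, genes called in a difference of responses, and members of 31 pathway lists (832 of 860 genes tested) and 11 marker lists (166 of 200). The members and lists were chosen with earlier results of these data known. Lists are described by counts and medians, with no test. Alternatives were other normalizations, filters, batch terms, variance models, the authors' values, within-batch fits, and each mouse left out. Scaling to spike-ins and leaving out slide 1 were added after seeing the data. CTRL 1 was singled out among the mice left out after seeing the data too. Probe coordinates are those of the array files (mm9) and promoters are from RefSeq on GRCm38.p6.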

Additional observations from a re-analysis of the deposited data

Results flagged for a closer look

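Of 106 groups of 6 values of named genes, 12 had 1 mouse far from the other 5, and of 84 groups of list means, 9 did; chance gives about 1 in 20. ATB 2 was lowest of the ATB mice for 4 Cyp3a genes, whose probes may share transcripts: 14.642 for Cyp3a11 (others from 15.22), 14.654 for Cyp3a16, 17.478 for Cyp3a41a and 13.925 for Cyp3a59. ATB 2 was also lowest for Opa3 (10.178). ATB 5 was lowest for Cyp7a1 (7.738, others from 9.123) and Pde4a (6.799) and highest for Adam32 (5.451). ATB 1 was lowest for Cyp4a14 (9.029). CTRL 4 was lowest for Fasn (15.685) and Scd1 (15.226, others from 16.864), and CTRL 3 was highest for Kntc1 (5.97).

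Among list means, CTRL 1 and ATB 1 were highest for clock genes (10.331 and 10.463) and pancreatic acinar genes (9.977 and 10.151). ATB 1 was highest for hepatocyte markers (17.14), fatty acid and triglyceride synthesis (12.545) and the growth hormone and STAT5 axis (11.941). CTRL 2 was highest for cholangiocyte markers (7.518) and CTRL 3 for cell cycle genes (8.117).

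The ATB response of wild-type females differed from that of wild-type males, in limma's test of the difference itself, by 2.9276 for Cyp2b10, 2.4347 for Cyp2b9, 2.1523 for Cyp3a16, 2.06 for Cyp3a11, 1.8805 for Cyp3a41a, 1.1433 for Cyp3a59, -0.74056 for Pknox1, -0.94865 for Paip2b, -0.96396 for Shq1 and -2.6474 for Tff3 on the log2 scale.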

How the results depend on the processing

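With all arrays 1 gene was called higher and 3 lower, the response differed from Pxr-/- females for 0 genes and from wild-type males for 10. In the same order (higher, lower), quantile normalization gave 3 and 6, the processed signal scaled to the 75th percentile 3 and 5 (and 6 genes different from males), normexp with quantile normalization 4 and 7, and array weights 3 and 29 (50 from males). Without normalization between arrays, 1 gene was called lower, and so with spike-in scaling; the authors' values gave 12 lower and 1 different from Pxr-/- females. A filter on all 47 arrays gave 0 higher, and fitting only the groups compared gave 0 higher and 0 lower. Within wash batch 1 there were 0 and 0 (1 from Pxr-/- females, 5 from males), and within wash batch 2, 1 lower and 0 from males. Without slide 1 there were 12 and 127 (3 and 5). Leaving out 1 mouse gave 0 to 18 higher, 1 to 125 lower, 0 from Pxr-/- females and 6 to 15 from males; leaving out CTRL 1 gave the highest counts of genes higher and lower, and without CTRL 3, CTRL 5, ATB 2, ATB 4 or ATB 5 only 1 gene, Csad, was called lower. The causes were not tested. No result changed direction among those with a call. The replicate numbers did not pair the mice (same-number correlations of -0.16 to 0.55, with only number 1 best matched to its own), and the replicate block gave 1 higher, 2 lower, 0 from Pxr-/- females and 9 from males. The interferon, macrophage, neutrophil, heat shock and cell cycle medians stayed below 0 in all 29 alternatives, and the all-gene median ranged from -0.21 to 0.02. The number of arrays and signal over background limit what dim probes such as Mypop and Slc4a9 can show.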

Other observations

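Other genes at low unadjusted p were not called. Atp6v0d2, a subunit of the vacuolar proton pump, read 7.49, 8.96 and 9.68 in CTRL and 9.05, 9.78 and 9.94 in ATB livers, with 5 ATB mice above all CTRL mice (0.83 ± 0.24, adjusted p = 0.23), and differed by 0.80, 1.58 and 1.27 in the other pairs (Pxr-/- females, wild-type males, Pxr-/- males). Of the 20 tested pump genes, 6 were instead lower at p below 0.05 (30%, against 8.93% of all genes). Angptl8, which acts on lipoprotein lipase, differed by -0.91 (13.08, 13.65 and 14.26 against 12.28, 12.48 and 13.54). Ppargc1a and Trib3, regulators of the fasting response, differed by 0.67 and 0.96, and Nags, which makes the activator of the urea cycle, by -0.44 (adjusted p = 0.19). Of 54 nuclear genes of oxidative phosphorylation, 53 were lower, none at p below 0.05, with a median of -0.08 that is close to the all-gene median of -0.06.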
